A study of Mus musculus with 10 samples.

Results

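The heat shock genes described here are 10 chaperone genes of the cytosol and mitochondria, of which 9 had a probe set that the platform annotation gave to that gene alone. A probe set is a group of short oligonucleotides on the array that together read out a transcript. Hspa8, Hspa9, Hspe1, Hspb1, Dnaja1 and Dnajb1 had 1 probe set each, Hsp90aa1 and Hspd1 had 2 and Hspa4 had 5, which made 15 of the 12488 probe sets on the array. Hsp90ab1 had none and was not analysed here. Signal passed the filter for the test in 12 of the 15 probe sets, covering 8 genes, while the only probe set of Hspb1 and the dimmest ones of Hspa4 and Hsp90aa1 lay below it.

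The animals were male C57BL/6 mice, and their hippocampi were taken at an age of 30 months. Of the 10 mice, 5 were under long-term calorie restriction and 5 ate a control diet. Total RNA of each mouse was read on its own Affymetrix array; how far food was cut and from which age is not stated in the labels. The question was which transcripts differ between old animals on the 2 diets.

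Heat shock proteins are chaperones, which bind unfolded or partly folded proteins and help them to fold, to cross membranes or to be degraded. HSP70 proteins hold exposed stretches of a client in an ATP-driven cycle, J-domain proteins hand them the client and start the hydrolysis of ATP, and exchange factors release the ADP. HSP90 acts later, on kinases and steroid receptors among others, and in mitochondria the HSP60 and HSP10 proteins form a closed chamber for folding. Heat and misfolded protein activate the transcription factor Hsf1, which binds heat shock elements, repeats of GAA and TTC set 2 bases apart, in front of many of these genes. In neurons the HSP70 protein of Hspa8 also strips the clathrin coat from vesicles that return from the synapse.

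The arrays of the 2 diets differed in more than the diet. The ratio of the 3' to the 5' control probe set of Gapdh and Actb, a measure of how intact and completely copied the RNA was, had a mean log2 of 0.78 to 6.11 on calorie restricted arrays and -0.12 to 0.45 on control arrays (exact two-sided permutation p = 0.00794, the smallest possible with 252 splits, and adjusted p = 0.00794 over 3 measures). Calorie restricted replicates 3 and 5 stood apart at 5.20 and 6.11, and the difference at the brightest probe set of each of the 8 tested heat shock genes, and of each other chaperone gene named with a difference below, is given with and without them. The bacterial spike-in signal (mean log2 13.05 ± 0.47 in calorie restricted and 11.12 ± 0.56 in control, SD, n = 5 each) and the median log2 signal (7.49 ± 0.18 and 7.84 ± 0.05) also did not overlap (exact permutation p = 0.00794 each). Of 26 marker genes of hippocampal cell types with a probe set, 24 lay above the filter; those of the granule cell marker Prox1 and the endothelial marker Tek did not. Among these markers 2 were higher and 8 lower in calorie restricted mice. The higher ones were 1 general neuron and 1 astrocyte marker. The lower ones were 2 general neuron, 2 pyramidal neuron, 2 microglial, 1 astrocyte and 1 choroid plexus marker. The summed intensity of 3 pyramidal neuron markers was 762 to 1527 in calorie restricted and 2362 to 4657 in control mice, and that of 4 microglial markers was 2289.9 to 3289 and 3049 to 4191. For 5 general neuron markers the sums were 34200 to 44160 and 28649 to 40343, with a median log2 difference of 0.12. Those of 2 choroid plexus markers were 435 to 14409 and 2452 to 10003. Sums of the granule cell, astrocyte, oligodendrocyte and endothelial markers also overlapped between the diets. In whole tissue, fewer cells of a type and less RNA per cell cannot be told apart, and the part of cell makeup in the results below was not tested.

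None of the 12 heat shock probe sets tested passed an adjusted p of 0.05 in limma, in either direction, where 11.8% of all 7453 probe sets tested did (4.11% higher and 7.74% lower). At an unadjusted p under 0.05 there were 4 of 12, or 33.3%, against 31.6% of all. Signals of the 2 diets did not overlap in 2 of 12, or 16.7%, against 14.3% of all; in both, every calorie restricted array was the higher one, as in 4.96% of all. Without regard to direction, the shares at the looser criteria were thus near those of the whole array. In the upward direction 16.7% stood against 4.96%, which rests on 2 probe sets. The median log2 difference, calorie restricted minus control, was 0.17 for the heat shock probe sets and -0.15 for all tested. Of the heat shock probe sets 7 of 12 were among the 1491 brightest tested, including the 2 that did not overlap. Of those 1491, 198 passed an adjusted p of 0.05 in limma, 166 as higher and 32 as lower, and 246 did not overlap. The upward share without overlap was not computed for them. The median of those 1491 was 0.13, with 1071 of them above the array-wide median. Below, each log2 difference from the fit is given with its standard error (SE), followed by its distance from that array-wide median. The limma p-values test the first of these against 0. The comparison by array of the brightest probe set of each gene shows how far the groups overlap.

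**Figure D1:**
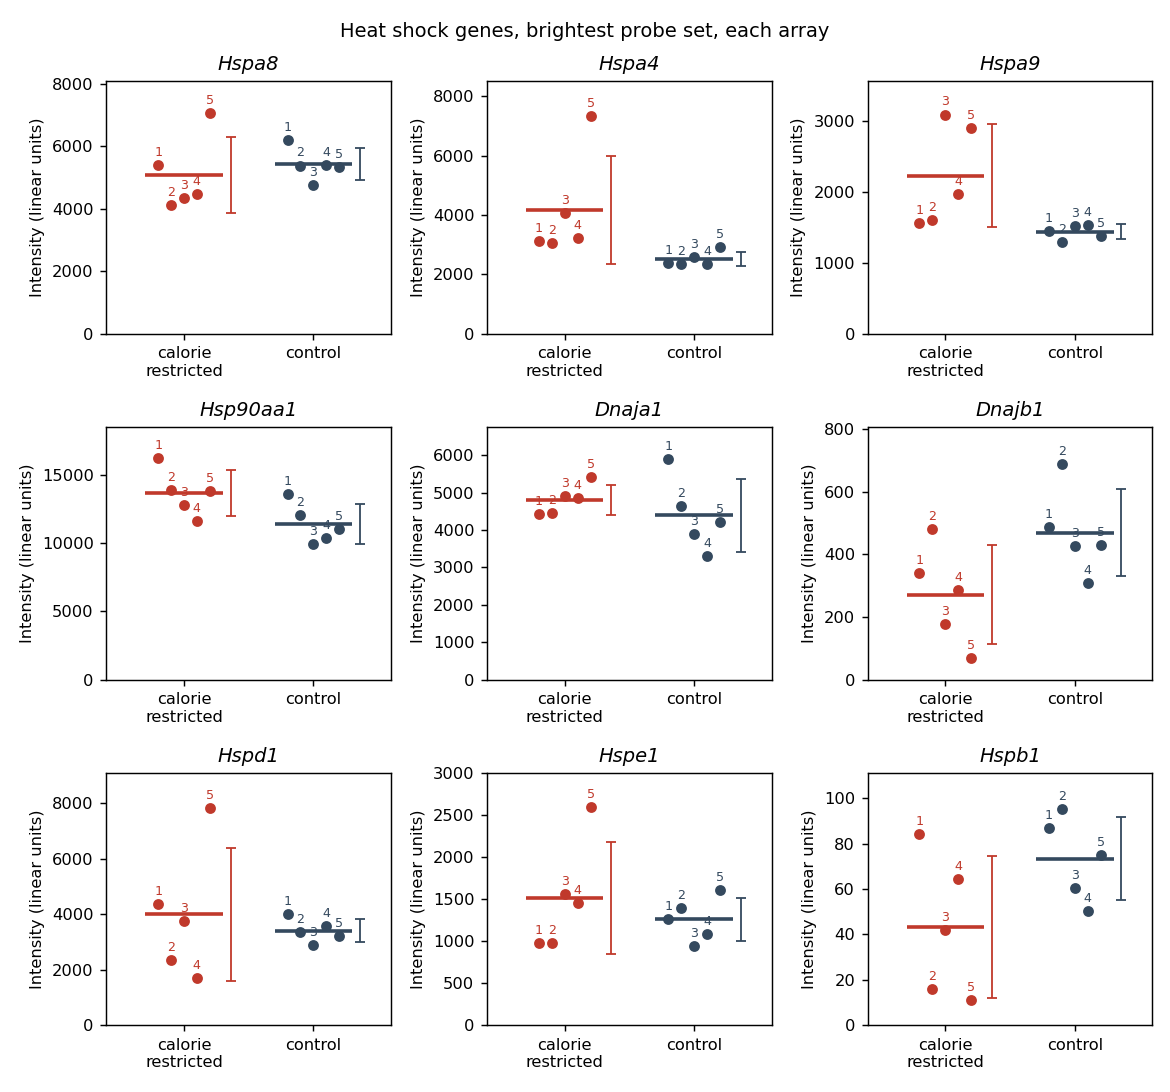
Intensity (linear units) of the brightest probe set of 9 heat shock genes on each array, calorie restricted (red) left of control (blue), with the replicate number at each point, the mean as a line and the SD as a bar (n = 5 each). The groups separate for Hspa4 and Hspa9 and overlap for the others, and calorie restricted replicate 5 is the highest of the 10 arrays for Hspa8, Hspa4, Hspd1 and Hspe1.

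The transcripts of the HSP70 group included the pair whose arrays separated by diet. Hspa4 encodes an HSP110-type relative of HSP70 that acts as its nucleotide exchange factor. Its brightest probe set, 96594_at, had intensities of 3144, 3054, 4069.7, 3243 and 7354 in calorie restricted replicates 1 to 5. Control replicates 1 to 5 had 2399, 2360.3, 2589, 2352 and 2935. All 5 calorie restricted arrays lay above all 5 control arrays, and replicate 5 lay far above the rest. The log2 difference was 0.64 ± 0.23 (SE, n = 5 each), 0.79 above the median, or 1.56-fold with a 95% interval of 1.10 to 2.22, and it did not pass (limma adjusted p = 0.0875). Without calorie restricted replicates 3 and 5 it was 0.32 (limma adjusted p = 0.118), and with the 3' to 5' ratio as a covariate 0.14 (limma adjusted p = 0.700).

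The other probe sets of Hspa4 did not give a single answer. Probe set 161745_f_at, of a type that can match several transcripts, ranged from 143 to 370.0 in calorie restricted and from 78.5 to 244 in control mice, with a log2 difference of 0.81 ± 0.35, and 0.78 without replicates 3 and 5. Probe set 92571_at had 0.27 ± 0.34 and 100353_g_at had -0.051 ± 0.25 (SE), and neither passed (limma adjusted p = 0.611 and 0.910, against 0.138 for 161745_f_at). On calorie restricted replicate 5, where 96594_at, 92571_at and 161745_f_at were at their highest of all arrays, 100353_g_at was at its lowest, 248 against 317 to 514 in control mice. The fifth, 100352_at, lay below the filter, at 39.7 to 108 in calorie restricted and 21.2 to 120 in control mice.

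Hspa9 encodes mortalin, the HSP70 of the mitochondrial matrix, which pulls imported proteins through the inner membrane. Its intensities were 1569, 1601, 3096, 1967 and 2909 in calorie restricted replicates 1 to 5. They were 1456, 1292, 1527, 1542 and 1380 in control replicates 1 to 5. The groups did not overlap, but replicates 1 and 2 lay just above the highest control array and replicates 3 and 5 at about 2 times the control level. The log2 difference was 0.57 ± 0.21 (SE), 0.73 above the median, or 1.49-fold with a 95% interval of 1.08 to 2.05 (limma adjusted p = 0.0935). It was 0.25 without replicates 3 and 5 (limma adjusted p = 0.258) and 0.11 with the 3' to 5' ratio as a covariate (limma adjusted p = 0.742). The control arrays spread little, with an SD of 105 around 1439, against an SD of 727 around 2228 in calorie restricted mice.

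Hspa8, the constitutive HSP70 of the cytosol, had 5408, 4130.4, 4342, 4474 and 7068 in calorie restricted replicates 1 to 5 and 6211, 5389, 4776, 5399 and 5349 in control replicates 1 to 5. Replicates 2, 3 and 4 lay below every control array and replicate 5 above every one. On the log2 scale Hspa8 differed by -0.12 ± 0.18 (SE), 0.035 above the median, and did not pass (limma adjusted p = 0.665). Its 95% interval was 0.71-fold to 1.20-fold under the deposited scaling, in a fit that takes no account of the 3' to 5' ratio. With that ratio as a covariate the log2 difference was -0.30 ± 0.19 (SE, limma adjusted p = 0.378). With each array centred on its median the log2 difference was 0.24, and under quantile normalization it was -0.45 ± 0.16 (SE; limma adjusted p = 0.0913). Without replicates 3 and 5 it was -0.22 (limma adjusted p = 0.315).

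Hsp90aa1 encodes the stress-inducible form of cytosolic HSP90. Probe set 95282_at had 16215, 13854, 12762, 11639.8 and 13830.3 in calorie restricted replicates 1 to 5, and 13614, 12026, 9912, 10349 and 11007 in control replicates 1 to 5. The ranges overlapped. For Hsp90aa1 the log2 difference was 0.26 ± 0.16 (SE), 0.42 above the median, or 1.20-fold with a 95% interval of 0.95 to 1.52 (limma adjusted p = 0.264). Its direction depends on the scaling, with -0.23 under quantile normalization and 0.62 when each array was centred on its median; without replicates 3 and 5 it was 0.28. The dim probe set 161869_i_at, which rests on part of its probes, lay below the filter, at 1.77 to 52.5 in calorie restricted and 16.9 to 38.1 in control mice.

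Among the J-domain proteins, Dnaja1 is a partner of HSP70 in folding and in import into mitochondria. It had 4423, 4458, 4904, 4865 and 5405 in calorie restricted and 5904, 4633, 3886, 3309 and 4206 in control replicates 1 to 5. All 5 calorie restricted values lay inside the control range. This gave a log2 difference of 0.16 ± 0.17 (SE; limma adjusted p = 0.554), 0.31 above the median, with -0.15 under quantile normalization and 0.088 without replicates 3 and 5.

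Dnajb1 is a heat-induced J-domain partner whose human form helps HSP70 to take protein aggregates apart. Its intensities were 342, 483, 178, 286 and 68.3 in calorie restricted replicates 1 to 5, and 487, 690.3, 428, 310.1 and 430.3 in control replicates 1 to 5. Calorie restricted replicates 3, 4 and 5 lay below every control array, while replicates 1 and 2 lay within the control range. The log2 difference was -1.01 ± 0.45 (SE), 0.86 below the median, or 0.50-fold with a 95% interval of 0.25 to 0.98, and did not pass (limma adjusted p = 0.145). It was -0.33 without replicates 3 and 5 (limma adjusted p = 0.446) and 0.027 with the 3' to 5' ratio as a covariate (limma adjusted p = 0.969). This was the lowest difference among the 12 tested heat shock probe sets, and the 2 calorie restricted arrays with the highest 3' to 5' ratio had its lowest signals.

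The array pattern of all 12 probe sets beside the 3' to 5' ratio shows where these values sit. Calorie restricted replicate 5 was the highest or the lowest of the 10 arrays in 9 of 12 heat shock probe sets, or 75%, and in 52.6% of all tested. The spread (SD of log2 signal) was larger in calorie restricted than in control mice for 9 of 12, or 75%, and for 76% of all tested.

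**Figure D2:**
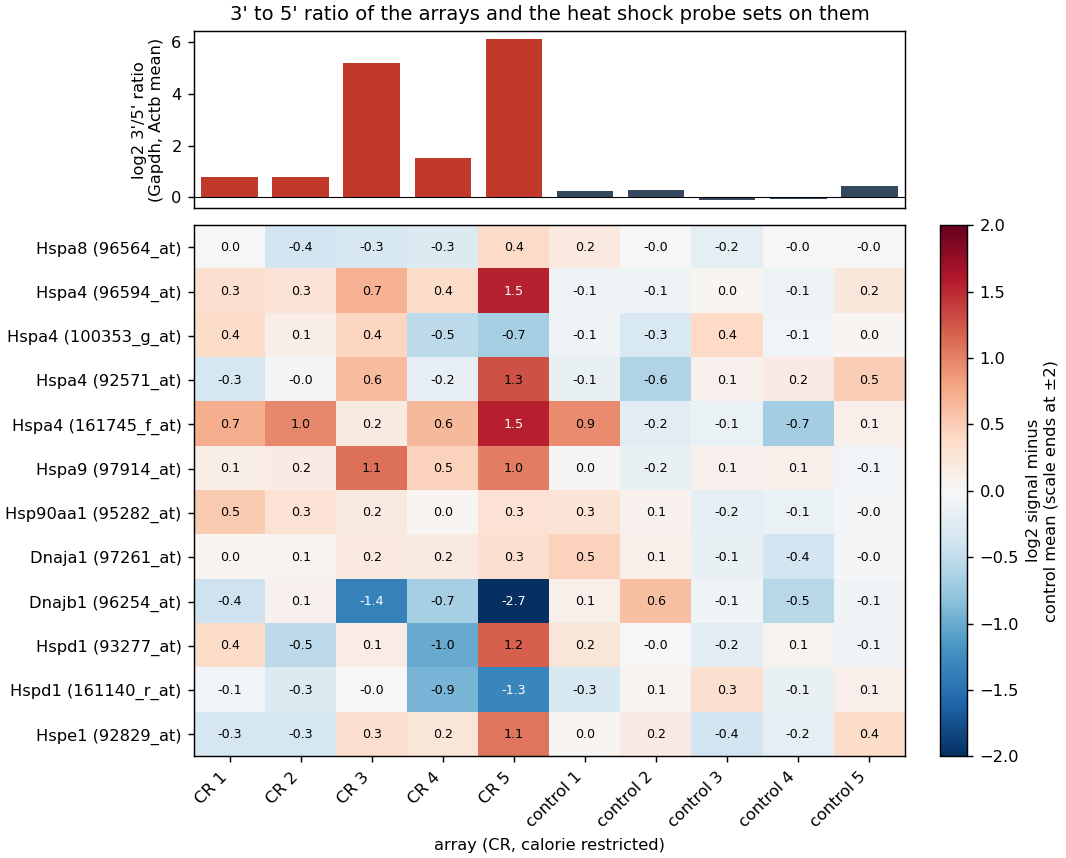
Upper panel, mean log2 3' to 5' ratio of the Gapdh and Actb control probe sets on each array; lower panel, log2 signal of the 12 tested heat shock probe sets minus the mean of the control arrays, with calorie restricted (CR) arrays on the left and control arrays on the right. Replicates 3 and 5 have ratios of 5.20 and 6.11, and replicate 5 holds the extreme colours in most lines, in both directions.

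Hspd1 and Hspe1 encode HSP60 and its lid HSP10, the chaperonin of mitochondria, and lie head to head on chromosome 1. One RefSeq promoter window of Hspd1 and that of Hspe1 cover the same DNA from opposite strands, and both hold a run of 4 alternating heat shock units. The stretches are shown because this shared element is the sequence that the 2 genes of the chaperonin have in common; capitals mark the units. They are the same bases read from the minus and the plus strand of chr1:55088039-55088096 (GRCm38.p6, RefSeq), and the element lies 144 to 127 bases before that annotated start of Hspd1 and 89 to 72 bases before that of Hspe1.
Hspd1: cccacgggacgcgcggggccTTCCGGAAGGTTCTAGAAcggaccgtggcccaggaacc
Hspe1: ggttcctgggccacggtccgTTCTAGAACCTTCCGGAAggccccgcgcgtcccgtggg

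Such a run, TTC, GAA, TTC and GAA with any 2 bases between neighbours, reads the same on both strands and occurs in 5 of the 32851 windows in the table, or 0.0152%, with those of Hspd1 and Hspe1 among them, each window running from 250 bases before to 50 after a start. Runs of 3 units occur in 0.31% of the windows where they begin with GAA and in 0.32% where they begin with TTC, each being the other's reverse. The pairs GAANNTTC and TTCNNGAA, which read the same on both strands and overlap in longer runs, occur in 7.86% and 8.52%. The promoter of Hspa9 was not looked up. Leaving out Hspa9, 6 of the heat shock genes analysed had windows in the table, Hspd1 and Hspe1 among them. Of these 6, 4 held at least a pair, including Hspd1 and Hspe1. For Dnaja1 this was 1 pair, GAANNTTC, 124 to 117 bases before the first of its 3 annotated starts, within chr4:40722324-40722371, plus strand. Hspb1 had 2 separate pairs between 117 and 90 bases before its start, within chr5:135887782-135887849, plus strand. Both are shown for comparison with the long run of the chaperonin genes, pairs in capitals. The windows of Dnajb1 and Hspa4 held none of these letters. A match describes the sequence only and is no measure of binding.
Dnaja1: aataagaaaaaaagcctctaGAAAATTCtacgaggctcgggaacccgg
Hspb1: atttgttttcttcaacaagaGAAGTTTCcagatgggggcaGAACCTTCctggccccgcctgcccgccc

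The transcripts of this shared region did not separate by diet. Hspd1, at probe set 93277_at, had 4385, 2364, 3753, 1693 and 7820 in calorie restricted replicates 1 to 5, against 4013, 3367, 2910.0, 3568 and 3232 in control replicates 1 to 5. Calorie restricted replicates 2 and 4 lay below and 1 and 5 above the whole control range. Their log2 difference was 0.037 ± 0.34 (SE; limma adjusted p = 0.951), 0.19 above the median, or 1.03-fold with a 95% interval of 0.62 to 1.70. The direction is not firm, with -0.22 under quantile normalization, -0.39 without replicates 3 and 5 and -0.57 with the 3' to 5' ratio as a covariate. Its other probe set, 161140_r_at, of a type outside the standard choice of probes, had -0.51 ± 0.28 (limma adjusted p = 0.221). It had 155 to 382 in calorie restricted and 307 to 478 in control mice. In replicate 5, where 93277_at was at its highest, 161140_r_at was at its lowest.

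Hspe1 had 978, 976, 1569.7, 1463 and 2599.8 in calorie restricted replicates 1 to 5, against 1269, 1398, 948, 1088 and 1609 in control replicates 1 to 5. Replicate 5 alone lay above every control array. The log2 difference was 0.19 ± 0.27 (SE; limma adjusted p = 0.649), 0.34 above the median, or 1.14-fold with a 95% interval of 0.76 to 1.71. It was -0.028 without replicate 5, -0.15 without replicates 3 and 5 and -0.39 with the 3' to 5' ratio as a covariate. Hspd1 and Hspe1 both had their highest signal in calorie restricted replicate 5. In replicate 4, where Hspd1 was at its lowest, Hspe1 lay within its control range.

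Hspb1 encodes the small heat shock protein HSP25 of the mouse, which holds unfolded proteins in a soluble state without using ATP. Its probe set lay below the filter and was not tested. The intensities were 84.2, 15.9, 41.8, 64.3 and 11.2 in calorie restricted replicates 1 to 5, against 86.7, 95.1, 60.2, 50.1 and 74.8 in control replicates 1 to 5. Replicates 2, 3 and 5 lay below every control array. With no filter on signal, the log2 difference was -1.11 ± 0.58 (SE; limma adjusted p = 0.253). At such low signal these values are close to the floor of the array, and background was not analysed here.

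Scaling moved several of these genes across 0, as the plot of differences shows. With each array centred on the median of all its values, the median difference over the tested probe sets was 0.20, so the differences below are larger by that much than a distance from the typical tested probe set. In this setting 3 of 12 heat shock probe sets passed, all of them higher in calorie restricted mice, where 11.4% of all tested probe sets passed as higher. They were Hspa4 (96594_at) at 0.99 ± 0.29, Hspa9 at 0.93 ± 0.26 and Hsp90aa1 (95282_at) at 0.62 ± 0.17 (SE; limma adjusted p = 0.0392, 0.0373 and 0.0368). Under quantile normalization 0 of 12 passed in limma (3 had an unadjusted p under 0.05), where 8.04% of all passed; Hspa4 (96594_at) and Hspa9 kept their direction there and Hsp90aa1 did not. At an adjusted p under 0.10 the calls as deposited were 2, Hspa4 (96594_at) and Hspa9, where 7.67% of all passed as higher.

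**Figure D3:**
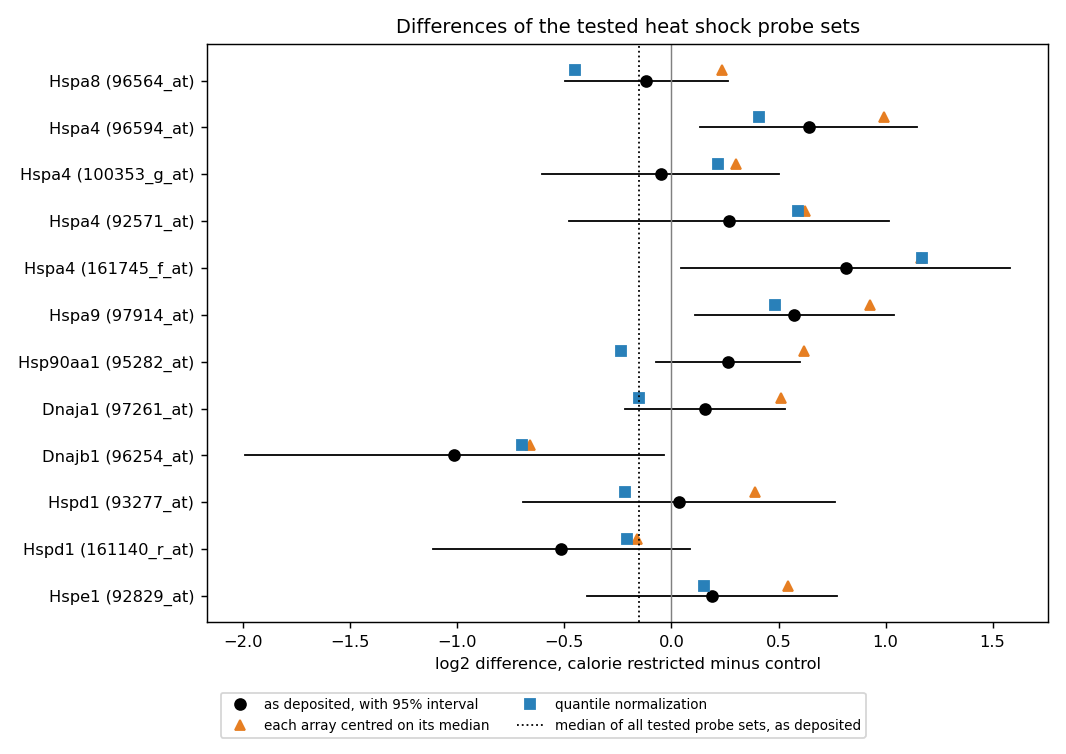
log2 difference, calorie restricted minus control, of the 12 tested heat shock probe sets, with the 95% interval from limma (black) and the same difference after centring each array on its median (orange triangles) or quantile normalization (blue squares). Hspa4 (96594_at and 161745_f_at) and Hspa9 lie right of 0 and Dnajb1 left of it under all 3 scalings, while Hsp90aa1, Dnaja1, Hspa8, Hspd1 (93277_at) and Hspa4 (100353_g_at) change side.

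Other chaperone genes were set beside them. Of 69 listed genes 57 had a probe set and 53 were tested by their brightest one; 2 were higher, 3 lower and 48 did not pass, so 9.43% passed against 11.8% of all tested. Their median log2 difference was -0.060, against -0.15 for all tested. Among 7 further HSP70 and HSP110 genes, Hspa1b, a heat-inducible HSP70, fell, with 160.3, 244, 439, 262 and 152 in calorie restricted replicates 1 to 5 and 447, 548, 462, 503 and 494 in control replicates 1 to 5. The groups did not overlap, and the log2 difference was -1.07 ± 0.28 (SE; limma adjusted p = 0.0309), and -1.17 without replicates 3 and 5 (limma adjusted p = 0.0106). It missed the threshold under quantile normalization (-0.81, limma adjusted p = 0.0821), with each array centred on its median (-0.72, limma adjusted p = 0.103) and without any 1 of the control arrays (-1.10 to -1.03, limma adjusted p = 0.0572 to 0.0738). Hspa1b also missed it with a replicate block (limma adjusted p = 0.0506). Its near-identical neighbour Hspa1a had 0.49 ± 0.27 (limma adjusted p = 0.228, no call), and 0.15 without replicates 3 and 5, and transcripts of the 2 genes may share probes. Hsph1, the other HSP110 that is induced by heat, had 0.43 ± 0.19 (limma adjusted p = 0.146, no call), and 0.18 without replicates 3 and 5. Centred on the array medians it was 0.78 and passed (limma adjusted p = 0.0424).

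Among 13 further J-domain genes, Dnajc8, whose human form is a nuclear protein found with spliceosomes, rose by 0.97 ± 0.20 on the log2 scale (SE; limma adjusted p = 0.0154), read by a probe set that can match several transcripts; its other one had 0.26 (limma adjusted p = 0.595, no call). Without replicates 3 and 5 these were 0.69 (limma adjusted p = 0.0150) and 0.13. Dnajc5, the cysteine string protein of synaptic vesicles, fell by 1.56 ± 0.45 (limma adjusted p = 0.0428), but was -1.07 without replicates 3 and 5 and no longer passed (limma adjusted p = 0.133). The call on Dnajc5 was also lost under quantile normalization, with centring, with no filter and with array weights (-1.56 to -1.21, limma adjusted p = 0.0514 to 0.0664), and without calorie restricted replicate 3, 4 or 5 or control replicate 1, 2, 3 or 4 (limma adjusted p = 0.0670 to 0.103). Of 11 genes of the cytosolic chaperonin TRiC and of prefoldin, which brings it actin and tubulin, Pfdn2 rose by 0.84 ± 0.19 (limma adjusted p = 0.0191) and Cct7 fell by 0.66 ± 0.19 (limma adjusted p = 0.0429). Pfdn2 had 0.73 without replicates 3 and 5 and still passed (limma adjusted p = 0.0331), and lost its call without control replicate 2 (0.74, limma adjusted p = 0.0549). Cct7 had -0.45 without replicates 3 and 5 (limma adjusted p = 0.0607) and -0.30 with each array centred on its median (limma adjusted p = 0.237), and was called in neither. The call on Cct7 was also lost with no filter, with no variance trend (-0.66 in both, limma adjusted p = 0.0542 and 0.0566), and without calorie restricted replicate 3 or 4 or any 1 of the control arrays (limma adjusted p = 0.0674 to 0.0971). A replicate block removed it too (limma adjusted p = 0.0787). With the 3' to 5' ratio as a covariate none of the 5 passed by the probe set used (limma adjusted p = 0.0660 to 0.337). Different genes of the chaperone lists, not named here, passed in that fit, 3 as higher and 1 as lower. The log2 differences in that fit were -1.17 ± 0.35 for Hspa1b and 0.74 ± 0.22 for Pfdn2, about as large as before with a larger SE. They were 0.54 ± 0.16 for Dnajc8, -0.72 ± 0.43 for Dnajc5 and -0.33 ± 0.18 for Cct7, each closer to 0 than before. None of 18 co-chaperones and exchange factors passed in limma (5 had an unadjusted p under 0.05), nor did any of 3 small heat shock proteins (1 had). Hsf2 and Hsf4, transcription factors related to Hsf1, lay below the filter.

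**Figure D4:**
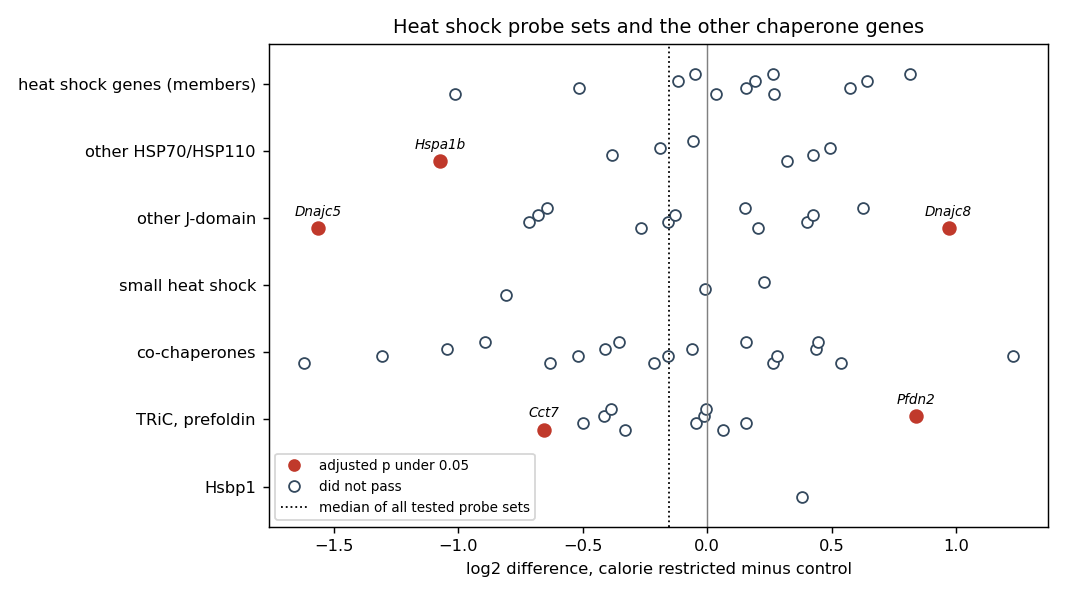
log2 difference, calorie restricted minus control, of the 12 tested heat shock probe sets (top line) and of 53 other chaperone genes by group, each circle a probe set. Filled circles passed an adjusted p of 0.05 in limma; they are Hspa1b, Dnajc5 and Cct7 on the left and Dnajc8 and Pfdn2 on the right, and none is in the top line.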

How the data were processed

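Total RNA of 10 hippocampi was extracted with Trizol and labelled as biotinylated cRNA, per the labels' protocols. The deposited table holds 1 linear intensity per probe set and array; the authors made the intensity values with MAS5, whose name alone is given, per the submitters' processing notes. On every array the mean intensity with 2% trimmed at each end was 500, so overall brightness had been equalised before deposit.

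Values under 1 (41 of 124880) were set to 1 and log2 was taken. The 66 control probe sets were left out, and probe sets whose log2 signal averaged less than the 40th percentile (6.85) were dropped, which left 7453 to test. Names came from the platform annotation, in which 10833 probe sets had 1 symbol, 396 several and 1193 none; 10817 were matched to RefSeq by gene number. The positions of the probe sets are not printed, since no build is given for them.

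Diets were compared with lmFit and eBayes (trend) in limma 3.58.1 under R 4.3.3, with Benjamini-Hochberg adjustment over all 7453; intervals are 95%. Array measures had an exact permutation test. Probe sets with g, f or i in their name can match several transcripts or rest on part of their probes. An r marks a probe set outside the standard choice of probes. The number of arrays limits the precision. The fit was tested on simulated data before use, with known changes added to noise of the observed spread. At an adjusted p under 0.05 it recovered 0% of changes of 0.5 in log2 and 22% of changes of 1. It recovered 90% of changes of 2 and 92% of changes of 3. The simulation changed 200 of the 7453 probe sets, while 883 passed in the data. Its noise was normal, independent between probe sets and of equal SD in both diets. These shares hold for that setting and do not give the share recovered in these data. A heat shock difference that did not pass is no sign of equal levels.

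The heat shock genes and the list of other chaperones were chosen with earlier results of these data known. All probe sets of the 9 genes are named. Of the other chaperones, each gene that passed in the fit of diet alone on the deposited scaling is named. Hspa1a, Hsph1, Hspa4l, Hsf2 and Hsf4 are named beside them. Alternatives changed the scaling, filter, offset, variance model, array weights, a covariate, a replicate block, the threshold and the arrays.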

Additional observations from a re-analysis of the deposited data

How the results depend on the processing

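For single heat shock probe sets, 211 of 238 values under an alternative kept their direction and their side of the threshold, 3 came to pass (the centred ones given above) and 24 turned direction. The log2 difference could not change, by design, with no filter, the other filter, no variance trend or a replicate block. These settings could move only the p-value, so their kept directions are no sign of stability. The count of heat shock probe sets that passed was 0 higher and 0 lower in every alternative except 3 higher with each array centred on its median and 2 higher at an adjusted p under 0.10; at an unadjusted p under 0.05 there were 4, and 0 with the 3' to 5' ratio as a covariate. Among all tested, 306 passed as higher and 577 as lower. These counts were 849 and 190 with each array centred on its median and 155 and 178 with the 3' to 5' ratio as a covariate. At an adjusted p under 0.10 they were 572 and 1055. The lower count was 280 under quantile normalization. It was 378 with the filter at the 60th percentile, which left 4969 probe sets to test in place of 7453. Leaving out 1 array gave 110 to 412 higher and 143 to 839 lower. Both counts moved by over 1.5 times without calorie restricted replicate 3 (119 and 230) and control replicates 1 (185 and 236), 2 (110 and 143), 3 (113 and 161) and 4 (123 and 178), and the lower one without calorie restricted replicate 4 (340) and control replicate 5 (346). Other chaperone genes, 2 higher and 3 lower, became 7 and 0 when centred and 4 and 7 at an adjusted p under 0.10. Their lower count was 1 under quantile normalization, with no filter and with the covariate, and their higher count was 4 without calorie restricted replicates 3 and 5. With 1 array left out they were 1 to 2 higher and 0 to 5 lower, with 5 lower without calorie restricted replicate 1 or 2, 1 lower without calorie restricted replicate 3 or control replicate 5, and 0 lower without control replicates 1, 2, 3 or 4 in turn. The cause of these moves was not tested.

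Turned under quantile normalization were Hspa4 100353_g_at (0.22), Hspd1 93277_at (-0.22), Hsp90aa1 (-0.23) and Dnaja1 (-0.15). Centring turned Hspa4 100353_g_at (0.30) and Hspa8 (0.24). Array weights turned Hspa4 100353_g_at (0.045), Hspe1 (-0.048) and Hspd1 93277_at (-0.26). The covariate turned Hspa4 100353_g_at (0.11), Hspa4 92571_at (-0.41), Hspe1 (-0.39), Hspd1 93277_at (-0.57) and Dnajb1 (0.027). Without calorie restricted replicates 3 and 5, Hspa4 92571_at had -0.19, Hspe1 -0.15 and Hspd1 93277_at -0.39. With 1 array left out, Hspa4 100353_g_at ran from -0.17 to 0.10, Hspe1 from -0.028 to 0.32 and Hspd1 93277_at from -0.25 to 0.30, and these were the only ones that turned. In the same way the limma adjusted p ran from 0.0606 to 0.165 for Hspa4 96594_at, from 0.0524 to 0.195 for Hspa9 and from 0.0609 to 0.272 for Dnajb1.

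The diets share replicate numbers 1 to 5. Same-numbered arrays did not deviate together (correlations of -0.076 to 0.17, 1 of 5 over 0.1, and 1 of 5 calorie restricted arrays nearest to its own number), so the numbers were not taken as pairs. A replicate block gave 195 higher and 345 lower among all tested, and 0 heat shock probe sets.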

Other observations

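Transcripts of 3 genes outside the chaperone lists had the array pattern most like that of Hspa8, by the mean absolute difference between log2 signals centred on their mean over the 10 arrays. They were Sec16a at 0.087, Casp2 at 0.096 and Tmem185a at 0.099, where the median over all tested probe sets was 0.41 and a transcript at the same level on every array would have 0.18. Sec16a, which marks the sites where vesicles leave the endoplasmic reticulum, had 1955, 1718, 1729, 1547 and 2695 in calorie restricted replicates 1 to 5 and 1923, 1844, 1682, 1979 and 1965 in control replicates 1 to 5. As with Hspa8, calorie restricted replicate 5 was the highest of all arrays and the groups overlapped. Among the heat shock probe sets, Dnaja1 at 0.22 and Hsp90aa1 at 0.25 were nearest to Hspa8 and Dnajb1 at 0.67 was farthest, so none was closer to Hspa8 than a flat transcript would be. The likeness is measured over the same 10 arrays for every gene, and it was not computed without calorie restricted replicates 3 and 5.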
